A study of Rattus norvegicus with 2 samples.

Results

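The cytosolic ribosomal protein genes encode the proteins of the ribosome that translates nuclear messenger RNA. They were taken from the deposited gene table as the entries whose symbol starts with Rpl or Rps followed by a digit, by p and a digit, or by a single final a, leaving out the S6 kinases (Rps6k). This rule found 126 of the 32662 gene entries, 75 of the large subunit and 51 of the small subunit, under 112 different symbols. The study sequenced total RNA, depleted of ribosomal RNA, from the retina of Long-Evans rats 2 months old. CTRL was a retina after a sham procedure, and IR12 was a retina collected 12 hours after reperfusion that followed ischemia. Each condition had 1 library, so no value has a replicate error, no test was possible, and each difference is a description of these 2 libraries. Values are FPKM, fragment counts scaled by transcript length and by library size, as the authors deposited them. How the library size was set was not tested. The table holds no read counts, so the number of reads behind each value is unknown, and the study's methods give a larger read total for IR12 than for CTRL.

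A ribosome holds a single copy of most of its proteins, and their messenger RNAs are among the most abundant of every cell. In mammals most of these messages start with a terminal oligopyrimidine (TOP) tract, a C followed by a run of C and T, through which the kinase mTOR and the binding protein Larp1 set how strongly they are translated. Many of the genes carry small nucleolar RNAs in their introns, short RNAs that guide the modification of ribosomal RNA, and the rat genome holds many processed copies of the genes, which makes reads hard to place.

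The label was checked against the symbols. Of the 126 entries, 82 carried the symbol of a canonical ribosomal protein, 23 a pseudogene symbol (-ps) and 21 another symbol such as a paralogue. Rps19bp1, which the rule also found, encodes a protein that binds a ribosomal protein and is not one itself. Its FPKM was 51.7 in CTRL and 82.7 in IR12. Of the 77 canonical symbols of the rule, 71 had an entry (42 of 46 large, 29 of 31 small), and Rpl13, Rpl22, Rpl36a, Rplp1, Rps19 and Rps26 were not analysed here.

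Values of 0 were frequent among the copies and also occurred in genes that every cell uses. In both libraries 33 of the 126 entries were listed at 0 (26.2%, against 41.5% of all gene entries). These were 20 of 75 entries of the large subunit and 13 of 51 of the small subunit. A further 5 entries were at 0 in CTRL alone and 2 in IR12 alone, and 86 were above 0 in both. Of the entries at 0 in both libraries, 27 of 33 had a listed locus shorter than 1000 bp, the size of a processed copy, and their median span was 432 bp. By kind, 12 of 82 canonical entries, 13 of 23 pseudogene entries and 8 of 21 other entries were at 0 in both.

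For 5 canonical symbols no entry was above 0 in either library. These were Rpl8, Rpl35a, Rpl38 and the stalk protein Rplp2 in the large subunit and Rps6, the target of the S6 kinases, in the small subunit. Rpl8 spanned 2033 bp at chr7:117967818-117969850 and Rps6 spanned 2292 bp at chr5:105197857-105200148 (build rn6), both far longer than a processed copy. The Rpl38 entry spanned 213 bp. Rpl7a had 2 entries, at 0.109 and 0 in CTRL and at 0 and 0 in IR12, and Rpl37 was at 0 in CTRL and 0.232 in IR12 over a locus of 366 bp. In the table a 0 can stand for a failed estimate as well as for no reads, and these genes are given as listed at 0, not as silent. Rpl21, Rps29, Rpl39 and Rpl7a each had an entry at 0 in both libraries beside another entry above 0. Only Rpl7a lacked an entry of at least 1 FPKM among these, and the main entries of Rpl21 and Rps29 were among the highest of all members.

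A minimum of 1 FPKM in at least 1 library was passed by 81 of the 126 members, 46 of the large and 35 of the small subunit. Of these, 80 were at or above 1 in both libraries and only Rps9 passed through IR12 alone. The 45 others were 33 entries at 0 in both and 12 with values of at most 0.943. For each gene the difference is log2 of (IR12 FPKM + 1)/(CTRL FPKM + 1). In this comparison 77 of the 81 members were higher in IR12 (51.8% of 13599 genes that passed the same minimum were). At least 1.5-fold higher were 63 of 81 (14.8% of all genes), and 1 of 81 was at least 1.5-fold lower (13.7% of all genes). At least 2-fold higher were 23 of 81 (6.56% of all genes), and 0 were at least 2-fold lower (6.12% of all genes). The median log2 ratio of the members was 0.81, beside 0.02 over all 13599 genes, and the middle part of the members lay between 0.59 and 1.05 (quartiles).

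The same was counted over abundant genes. Among all 2275 genes with a mean FPKM of at least 50, members and small RNAs included, 52.9% were higher in IR12 and 14.8% at least 1.5-fold higher, with a median of 0.03. Among 213 genes of that level with a span under 5000 bp that were neither members nor small RNAs, the median was 0.20 and 53 were at least 1.5-fold higher (24.9%). Gapdh, a glycolytic enzyme, was at 716 in CTRL and 690 in IR12, and Actb, an actin, at 260 and 537 FPKM.

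The ratio depends on the scale on which the libraries are set side by side. The summed FPKM of all entries was 1402321 in CTRL and 895200 in IR12, and over genes that are not small RNAs it was 449223 and 481456. Setting both libraries to the same sum moved the median of all genes from 0.02 to 0.61 and that of the members from 0.81 to 1.43. The distance between the members and all genes was 0.79 as deposited and 0.82 on that scale, and 0.78 when the same sum was taken over genes that are not small RNAs. The count of members at least 2-fold higher, 23 as deposited, was 69 with equal sums over all entries and 14 with equal sums over genes that are not small RNAs, and the count at least 1.5-fold higher, 63 as deposited, was 78 and 53. Of all 13599 genes, 22.4% and 5.79% were at least 2-fold higher on these scales and 52.2% and 12.3% at least 1.5-fold higher. The 65 canonical entries that passed the minimum were all higher in IR12 on each of these scales.

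**Figure D1:**
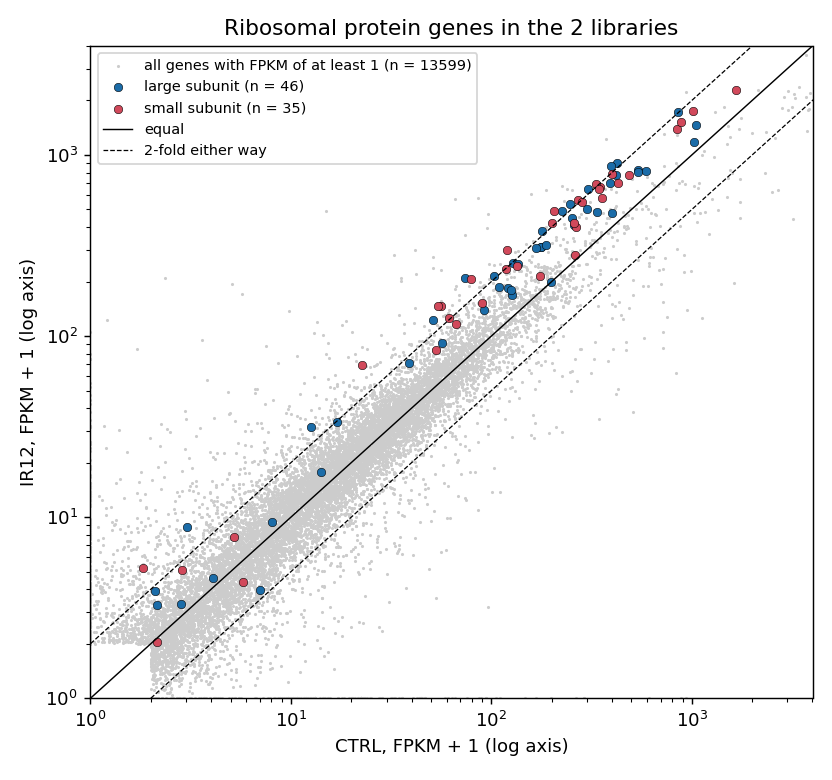
FPKM + 1 in IR12 against FPKM + 1 in CTRL on log axes for 46 large subunit members (blue), 35 small subunit members (red) and all 13599 genes with FPKM of at least 1 in at least 1 library (grey). The solid line marks equal values and the dashed lines 2-fold differences, 32 genes lie past the axis limit of 4000, and 77 of the 81 members lie above the solid line.

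Both subunits differed in the same direction and by a similar amount. The median log2 ratio was 0.79 over the 46 large subunit members and 0.84 over the 35 small subunit members. At least 1.5-fold higher were 33 of 46 and 30 of 35, and at least 2-fold higher were 12 of 46 and 11 of 35. On canonical symbols alone the medians were 0.83 over 37 entries and 0.92 over 28. The summed FPKM of the large subunit was 10828 in CTRL and 18043 in IR12, and that of the small subunit 9846 and 16949. Over all members the sum was 20674 in CTRL and 34992 in IR12, a ratio of 1.69. As a share of the summed FPKM of all genes that are not small RNAs, the members took 4.60% in CTRL and 7.27% in IR12, and as a share of all entries 1.47% and 3.91%. The ratio of the sums thus depends on the scale and was 1.58 with equal sums over genes that are not small RNAs and 2.65 with equal sums over all entries.

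The canonical genes differed widely in level in both libraries. Rps29, a small zinc-binding protein of the small subunit, had the highest mean, at 1654 FPKM in CTRL and 2288 in IR12. It was followed by Rps27 at 1013 and 1742, and by Rpl41, whose product is a very short basic peptide, at 854 and 1728. Rpl21 was at 1048 and 1454. Rps27a, made as a fusion of ubiquitin with a ribosomal protein, was at 886 and 1514. All of these were higher in IR12, and as deposited Rpl41 alone among them was more than 2-fold higher. With equal sums over genes that are not small RNAs Rpl41 was less than 2-fold higher (log2 ratio 0.92). With equal sums over all entries each of these genes was more than 2-fold higher. At the low end, Rpl30 was at 7.03 and 8.38 FPKM and Rpl36 at 11.6 and 30.3, over loci of 461 and 576 bp. Rpl28 was at 16.0 and 32.6, and Rps10 at 21.8 and 68.5. Entries for proteins present in equal number in the particle differed by far in FPKM, a scale that divides by length. The Rpl30 and Rpl36 entries are as short as a processed copy, so their low values may not give the level of the message. The lowest mean FPKM above 0 belonged to Rpl7a, to Rpl26-ps1 (0 and 0.161) and to a second Rps2 entry (0.139 and 0.0407). Next by mean were a second Rpl21 entry (0 and 0.216) and Rpl22l2 (0 and 0.228).

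The order of the genes by level was nearly the same in CTRL and IR12. Across the 64 canonical entries with at least 1 FPKM in both libraries, the rank correlation of the levels was 0.97 (Spearman; the genes are points from the same 2 libraries and not independent replicates). The 64 include a low second entry of Rpl32, at 1.84 FPKM in CTRL and 2.30 in IR12. The median was 249 FPKM in CTRL and 421 in IR12. The 90th percentile was 15.0 times the 10th in CTRL and 9.36 times in IR12, while the standard deviation of log2 FPKM was 1.78 and 1.72. Split by mean FPKM, the lowest 22 entries had a median log2 ratio of 0.93, the middle 20 of 0.83 and the highest 22 of 0.78.

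**Figure D2:**
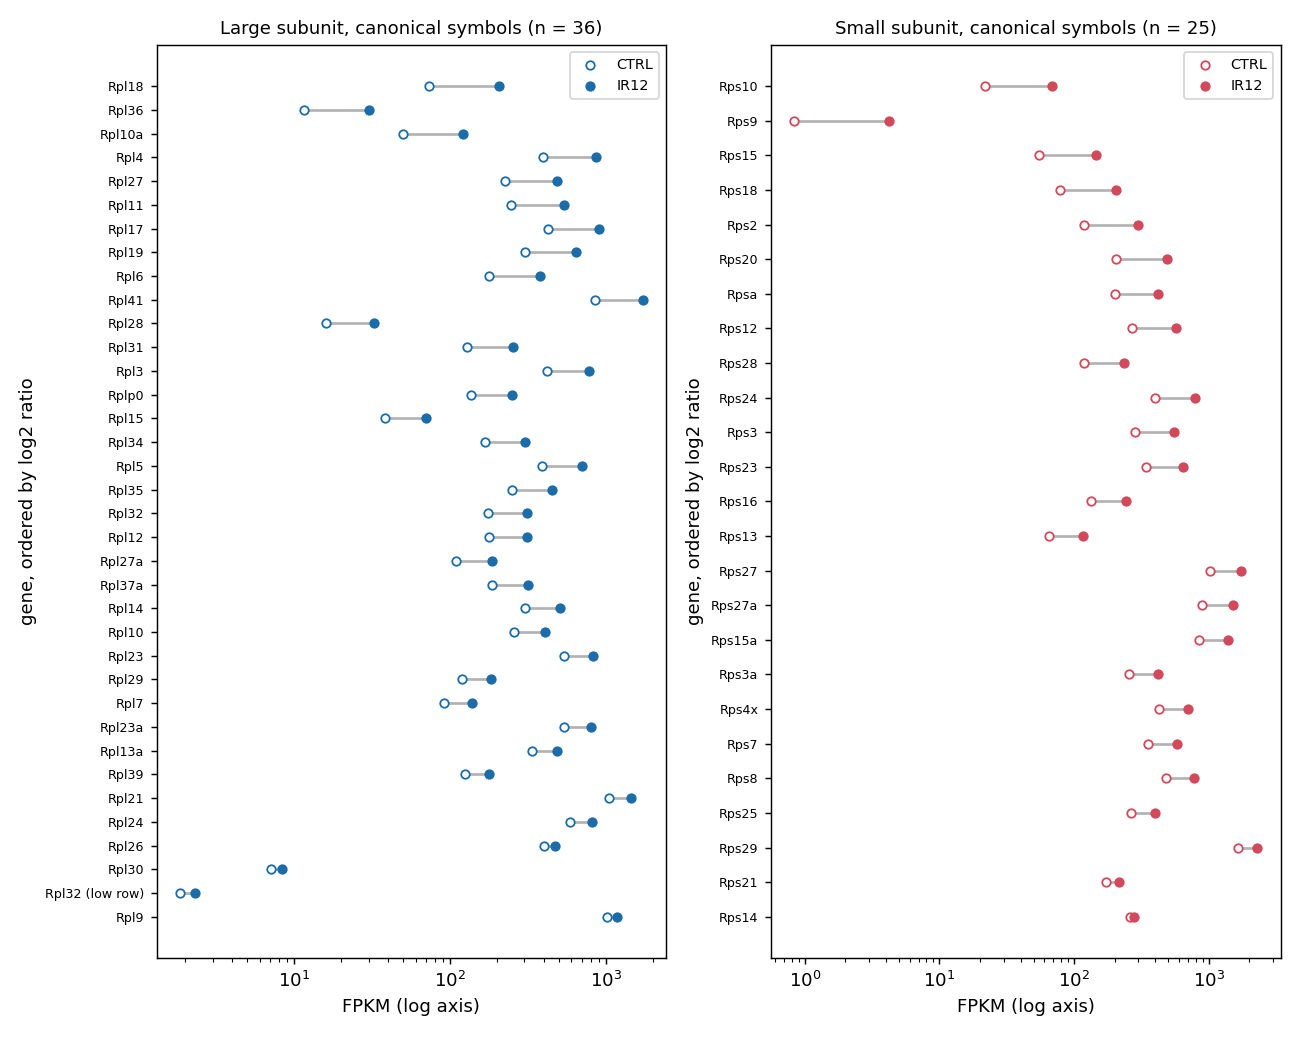
FPKM in CTRL (open) and IR12 (filled) on a log axis for canonical entries with FPKM of at least 1 in at least 1 library, 36 of the large and 25 of the small subunit, ordered by log2 ratio. Every filled point lies to the right of its open point, from Rps14 with a log2 ratio of 0.11 to Rps10 with 1.61.

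The largest ratios among members with at least 5 FPKM in either library were spread over both subunits. Rps10 was at 21.8 FPKM in CTRL against 68.5 in IR12 (log2 ratio 1.61). Rpl18 was at 73.2 and 207 (1.49). The value in IR12 was 3.15 and 2.83 times that in CTRL for these members, both among the 22 canonical entries with the lowest mean FPKM. Rps15 was at 55.0 and 145 (1.38) and Rps18 at 78.2 and 204 (1.38). Rpl36 was at 11.6 and 30.3 (1.32), over a locus of 576 bp. Rps2, which lines the entry of the channel for messenger RNA, was at 118 and 299 (1.33). A processed copy was also in this group: Rpl34-ps1 was at 2.02 and 7.78 (1.54) over a locus of 427 bp. It reached 5 FPKM in IR12 alone.

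Rps9 had a high ratio at a very low level, 0.834 FPKM in CTRL and 4.26 in IR12. Its listed locus spans 108487 bp and is shared with 6 other entries, so its level is not set beside those of the other members.

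The canonical genes with the smallest ratios were still listed higher in IR12. Rps14 was at 259 and 280 FPKM (0.11), Rpl9 at 1020 and 1181 (0.21), Rpl26 at 398 and 474 (0.25) and Rps21 at 173 and 214 (0.30). Rpl26, a protein near the exit of the peptide tunnel, and Rps14, a protein of the platform of the small subunit, thus stood apart from most of their partners in the particle. Rps29, which had the highest level, was next in the small subunit with a ratio of 0.47. Rpl30 was at 7.03 and 8.38 (0.22), but its entry spans 461 bp, and a low second entry of Rpl32 was at 1.84 and 2.30 (0.22).

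The 4 members that were not higher were all outside the canonical symbols. Rpl21-ps4, a copy of 483 bp, was at 6.01 FPKM in CTRL and 2.98 in IR12 (-0.82), and Rps2-ps1 at 4.76 and 3.36 (-0.40). Rps4y2 was at 1.15 and 1.04. The paralogue Rpl22l1 was at 197 in both libraries (197.1 and 196.8). On the scale of equal sums, Rpl21-ps4 alone was lower in IR12.

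Near the 2-fold line, Rpl41 (log2 ratio 1.02) and Rps27l (1.03) lay just above it, and Rps28 (0.99), Rps24 (0.98) and Rpl28 (0.98) just below. The gap between these neighbours is small, and the count of 2-fold differences turns on it.

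Members are next described by where they sit in the ribosome. Of these genes, those outside the rule for named genes were picked by role after their values were seen. The P stalk recruits the translation factors that use GTP. Its base protein Rplp0 was at 135 FPKM in CTRL and 250 in IR12, and Rpl12, which binds beside it, at 177 and 310. Both were at least 1.5-fold higher, while Rplp2 was listed at 0. Rpl5 and Rpl11 join the 5S ribosomal RNA into a particle that can also bind Mdm2, a ubiquitin ligase. Rpl5 was at 390 and 703 FPKM, Rpl11 at 246 and 538, and Rpl23, another Mdm2 binding protein, at 540 and 825. As deposited, all 3 were at least 1.5-fold higher and Rpl11 more than 2-fold, while Rpl23, at a log2 ratio of 0.51, was less than 1.5-fold higher with equal sums over genes that are not small RNAs.

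The wall of the tunnel through which the new peptide leaves is built in part by Rpl4 (395 and 870 FPKM), Rpl17 (423 and 905) and Rpl39 (125 and 178). Rpl4 and Rpl17 had log2 ratios of 1.14 and 1.10 and Rpl39 one of 0.51. Rpl23a and Rpl35 form the docking site at the end of that tunnel and were at 538 and 807 and at 251 and 448 FPKM. In the small subunit, Rps3 at the entry of messenger RNA was at 281 and 547, Rps23 at the decoding centre was at 344 and 646, and Rps12 in the beak of the small subunit was at 270 and 565.

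The paralogues can take the place of a parent protein or belong to another tissue. Of 9 with an entry, 7 passed the minimum, with a median log2 ratio of 0.41. The median over all members was 0.81, and the difference was not tested. As deposited, 3 paralogues were at least 1.5-fold higher (14.8% of all genes were). Of these, Rps10l1 was less than 1.5-fold higher with equal sums over genes that are not small RNAs (log2 ratio 0.51) and when centred on the median gene (0.57). Rps27l, a close relative of Rps27, was at 60.6 FPKM in CTRL and 125 in IR12, which was 5.98% and 7.17% of Rps27. Rpl7l1 was at 55.9 and 90.6, beside Rpl7 at 90.8 and 138. Rps10l1 was at 4.17 and 6.81, or 19.2% and 9.95% of Rps10. Rps27l was thus the paralogue with the largest ratio and the lead of Rps10 over its copy was greater in IR12. Rpl36al was at 126 and 167, and Rpl39l at 13.1 and 16.7 beside Rpl39. Rpl10l, a gene of the male germ line, was at 0.148 and 0.865 beside its parent Rpl10 at 257 and 408. Rpl3l, a gene of striated muscle, was at 0.284 and 0.0664 beside Rpl3 at 420 and 778. Both of these paralogues were below the minimum in the retina.

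The 65 canonical entries that passed the minimum were spread over 18 chromosomes, with 12 on chromosome 1 and 3 on chromosome X. Rpl10, Rpl39 and Rps4x on the X chromosome had log2 ratios of 0.66, 0.51 and 0.71.

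The starts of the genes share a sequence feature that the rule did not use. Promoter sequences of RefSeq (build GRCr8), 250 bases before to 50 bases from the annotated start on, matched 50 of the 64 canonical symbols with a value, with 51 promoters. For 49 of the 50 the deposited entry lay on the same chromosome, and Rps13, deposited over 523 bp on chromosome 3 at 65.6 and 115 FPKM, was the exception. A TOP-like start was searched as a C at the annotated start followed by at least 4 bases that are C or T, on the gene's strand. It was found in 19 of the 51 promoters (37.3%), against 2.63% of all 33469 promoters. Allowing the C to lie up to 5 bases to either side gave 33 of 51 (64.7%) against 17.0% of all promoters. At the annotated start the share was 44.8% of 29 large subunit promoters and 27.3% of 22 small subunit promoters, and within 5 bases it was 62.1% and 68.2%. The following windows of 30 bases, 10 before and 20 from the annotated start on, are shown for genes chosen because they have a tract, with large, middle and small ratios, with the longest tract that starts within 5 bases of the annotated start in capitals. They are Rps10 at chr20:5700725-5700754 (minus strand), Rps15 at chr7:10068096-10068125 (minus), Rps18 at chr20:4933735-4933764 (plus), Rpl28 at chr1:78083513-78083542 (minus), Rps27 at chr2:177964587-177964616 (minus), Rps21 at chr3:187724028-187724057 (plus) and Rpl9 at chr14:43247580-43247609 (plus), all on GRCr8.
Rps10: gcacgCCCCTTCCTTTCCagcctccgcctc
Rps15: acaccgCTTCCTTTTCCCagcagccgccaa
Rps18: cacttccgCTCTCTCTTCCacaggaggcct
Rpl28: cccctagtgtCTTTCTTTCCgtctccggcc
Rps27: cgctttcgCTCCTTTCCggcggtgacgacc
Rps21: agccaCTTCCTTTCTgtgttctccgtagac
Rpl9: aggacgttCTCTCTTTgccccatctactgc
Tracts of 8 to 13 bases stood at or near the start of genes with ratios as far apart as 1.61 (Rps10) and 0.21 (Rpl9). The canonical genes with no tract within 5 bases include Rpl18, Rps2, Rpl36, Rpl41, Rpl21, Rpl26, Rpl5, Rpl11, Rpl3, Rps3 and Rps12. The search rests on the annotated start, and a tract further away was not searched. These genes are therefore not shown to lack a TOP tract. Rpl18, with a large ratio, at chr1:105325260-105325289 (plus), and Rpl26, with a small one, at chr10:54109682-54109711 (plus), are shown with the paralogues Rpl22l1, at chr2:113683186-113683215 (plus), and Rps27l, at chr8:76443648-76443677 (plus), which also had none.
Rpl18: acctggtctagcaggaggcgccatcatggt
Rpl26: gtcaacttacagaaccggaagtcgcatgta
Rpl22l1: gtggatatccggttccgagttgcgcagcgc
Rps27l: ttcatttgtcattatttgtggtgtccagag
The median log2 ratio was 0.81 over the 33 canonical symbols with a tract within 5 bases of any annotated start and 0.96 over the 17 without one, a difference that was not tested. For the same reason this split does not separate TOP messages from others. Searched on both strands of the 300 bases, TTCCGG was in 26 of the 51 promoters (51.0%, against 15.0% of all promoters) and TATAAA in 5 (9.8%, against 14.2%). TTCCGG was about as frequent in the promoters of proteasome subunits (17 of 34), ribosome assembly factors (38 of 62) and mitochondrial ribosomal proteins (27 of 56). The tract within 5 bases was found in 8 of 34, 12 of 62 and 14 of 56 promoters of these lists. A match describes these letters and not a site in use.

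Small nucleolar RNAs listed on the loci of canonical members were mostly lower in IR12, while their hosts were higher. Most small nucleolar RNAs elsewhere were lower too, so the direction was not particular to these loci. Of 58 such entries, 27 were at 0 in both libraries and 31 passed the minimum, on the loci of 20 host genes. Among these 31, 28 were lower in IR12, and their median log2 ratio was -1.33. The share was 81.5% of 222 small nucleolar RNAs elsewhere (181 of 222), with a median of -1.20. All 20 hosts were higher in IR12, and for 17 of them every small nucleolar RNA that passed was lower. On the scale of equal sums 27 of the 31 were still lower, with a median of -0.68, beside 153 of the 222 elsewhere, with a median of -0.56.

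The more abundant of 2 SNORD15 entries on the locus of Rps3 was at 16436 FPKM in CTRL and 4143 in IR12, while Rps3 was at 281 and 547. SNORD16 on Rpl4 was at 430 and 50.3. These RNAs, picked after their values were seen as examples with high levels or large differences, were all lower beside a host that was higher. SNORA3 (a second entry on Rpl27a), SNORA40 (Rps16) and SNORD73 (Rps3a) were the exceptions, listed at 0 in CTRL and at 5.86, 13.5 and 54.3 in IR12. The FPKM of RNAs as short as these depends on how their length is corrected, so each is compared only with itself. The 20 hosts had a median log2 ratio of 0.85 and the 45 other canonical entries one of 0.86.

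**Figure D3:**
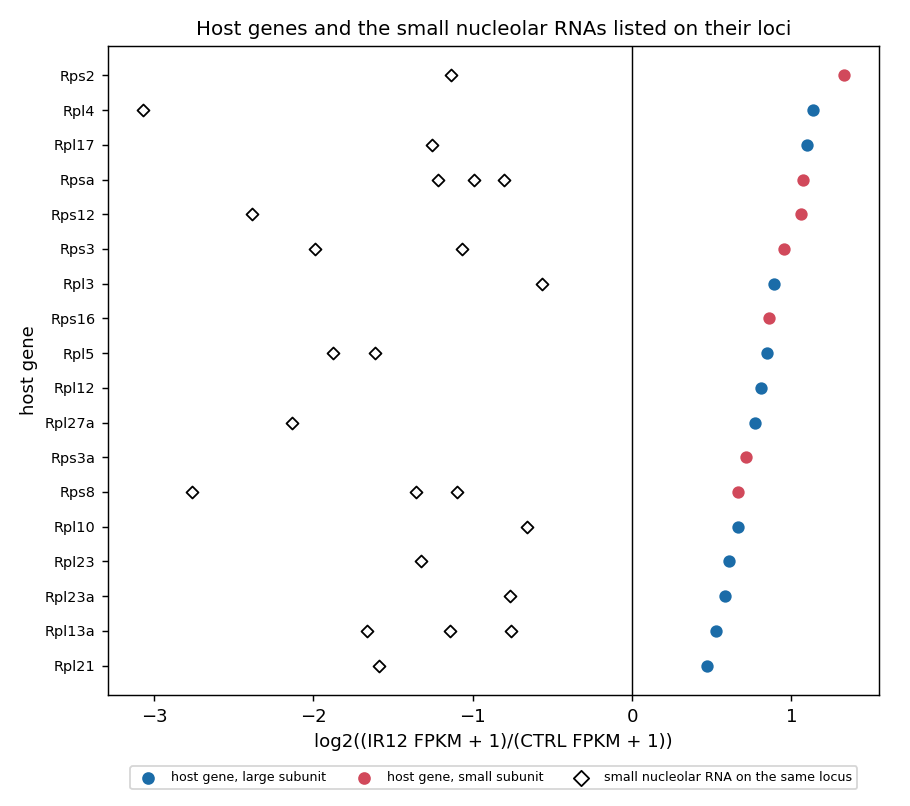
Log2 ratio of IR12 to CTRL (FPKM + 1) of 18 host genes, blue for the large and red for the small subunit, and of the 23 small nucleolar RNAs on their loci with values above 0 in both libraries (diamonds). All 23 diamonds lie left of 0 and all 18 host genes right of it, and 6 small nucleolar RNAs at 0 in 1 library are not drawn.

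Other genes of ribosome production differed in the same direction as the members. Other messages known to start with a TOP tract, mostly translation factors, had a median log2 ratio of 0.76 as a list. In IR12 18 of 19 were higher and 12 of 19 at least 1.5-fold higher (51.8% and 14.8% of all genes). Eef1a1, the elongation factor that delivers transfer RNA, was at 930 FPKM in CTRL and 2218 in IR12, Npm1, a nucleolar chaperone, at 253 and 639, and Eef1d at 10.7 and 33.9. Eif3f was at 66.3 and 66.1, Pabpc1, the poly(A) binding protein, at 85.6 and 100.3, and Nap1l1 at 236 and 288. In the RefSeq promoters of this list, searched in the same way, a TOP-like tract was at the annotated start in 0 of 16 and within 5 bases in 5 of 16 (31.2%), below the shares of the members. The range of ratios in this list was as wide as that of the canonical members. Npm1 is also on the list of assembly factors.

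Ribosome assembly factors had a median of 0.76, with 61 of 62 higher and 44 of 62 at least 1.5-fold higher (51.8% and 14.8% of all genes). The largest ratios were those of Rcl1 (3.30 and 11.8 FPKM), Mrto4, which holds the place of a stalk protein during assembly (8.45 and 27.1), and the helicase Ddx21 (19.3 and 56.4). Rcl1 reached the 5 FPKM set for named genes in IR12 alone. Gnl3l (56.8 and 54.0), Imp3 (22.9 and 24.8) and Riok1 (24.0 and 29.2) had the smallest. The subunits and factors of RNA polymerase I, which makes the precursor of ribosomal RNA, were higher in 13 of 13, with a median of 0.65 and 7 at least 1.5-fold higher. Polr1e, which reached 5 FPKM in IR12 alone, was at 4.53 and 13.5, Polr1a at 6.49 and 13.7 and Polr1c at 16.2 and 30.5. Taf1d was at 117 and 137, Ubtf at 22.6 and 26.8 and Taf1b at 12.7 and 15.6. The nucleolar lists, which do not overlap the members, therefore had medians within 0.2 of theirs.

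The regulators were mixed. In the mTOR and S6 kinase list 13 of 20 were higher as deposited and 18 of 20 on the scale of equal sums. Of all genes 51.8% and 84.3% were higher on these scales. The deposited median of the list was 0.20. As deposited, 3 of 20 were at least 1.5-fold higher (14.8% of all genes) and 2 of 20 at least 1.5-fold lower (13.7% of all genes). Both counts were near the shares of all genes. Eif4ebp1, a repressor of translation that mTOR holds off, was at 1.76 FPKM in CTRL and 12.0 in IR12, and reached 5 FPKM in IR12 alone. Rps6ka2, a kinase of the ERK pathway, was at 12.0 and 58.6. The other gene at least 1.5-fold higher was Sesn2, below the 5 FPKM set for named genes, at 1.80 and 3.40 (log2 ratio 0.65). Akt1s1, at 5.84 and 8.85 (0.53), was less than 1.5-fold higher after 1 FPKM was added. Ddit4, an inhibitor of mTOR, was at 16.1 and 9.11, Rps6ka5 at 30.5 and 18.8, and Rptor, the mTOR partner that binds substrates, at 18.4 and 12.9. Mtor itself (18.4 and 20.8) and Larp1 (27.6 and 37.4), picked for their role after their values were seen, differed by less than 1.5-fold. Mdm2 was at 45.9 and 54.4, Cdkn1a, an inhibitor of the cell cycle, at 2.71 and 4.58 (log2 ratio 0.59), Bax, which promotes cell death, at 11.1 and 13.1, Ccng1 at 217.8 and 218.3 and Mdm4, a relative of Mdm2, at 84.4 and 74.9.

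Large complexes outside the cytosolic ribosome had medians between those of the members and of all genes. At least 1.5-fold higher were 36.8% of proteasome subunits, 18.8% of mitochondrial ribosomal proteins and 9.86% of oxidative phosphorylation genes, beside 14.8% of all genes. Proteasome subunits had a median of 0.52, with 37 of 38 higher and 14 at least 1.5-fold higher. The 38 include Psmc3ip, a recombination factor and not a subunit, at 13.4 and 19.1 FPKM. Their largest ratios were those of Psmb9 (0.848 and 5.21 FPKM) and Psmb10 (2.94 and 8.14), both of the immunoproteasome, and Psmd3 (14.1 and 26.8). Psmb9 and Psmb10 reached the 5 FPKM set for named genes in IR12 alone, and Psmb9 also passed the minimum of 1 FPKM there alone. The smallest ratios were those of Psmd10 (20.9 and 18.0), Psmb1 (165 and 171) and Psma3 (66.0 and 72.4). Mitochondrial ribosomal proteins had a median of 0.39, with 64 of 69 higher and 13 at least 1.5-fold higher. Mrpl2 was at 13.1 and 27.5, Mrps27 at 11.4 and 23.4 and Mrps11 at 9.69 and 19.8, against Mrpl14 at 16.8 and 11.02, Mrpl33 at 97.1 and 73.0 and Mrpl18 at 53.7 and 49.4. Nuclear genes of oxidative phosphorylation had a median of 0.18, with 47 of 71 higher, 7 at least 1.5-fold higher and 4 at least 1.5-fold lower. On the scale of equal sums 68 of 71 were higher, with a median of 0.83, and with equal sums over genes that are not small RNAs 42 of 71 were. Of all genes 51.8% were higher as deposited, and 84.3% and 44.6% on these scales. Atp5g1 was at 48.3 and 102, Ndufv3 at 24.7 and 47.7 and Ndufb7 at 10.7 and 19.4, against Cox4i2 at 12.9 and 6.69, Ndufc1 at 73.6 and 48.3 and Cox7c at 305 and 213. Of the 81 members, 69 had a ratio above the median of the mitochondrial ribosomal proteins, 64 above that of the proteasome and 47 above that of the assembly factors. The differences between the lists were not tested.

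**Figure D4:**
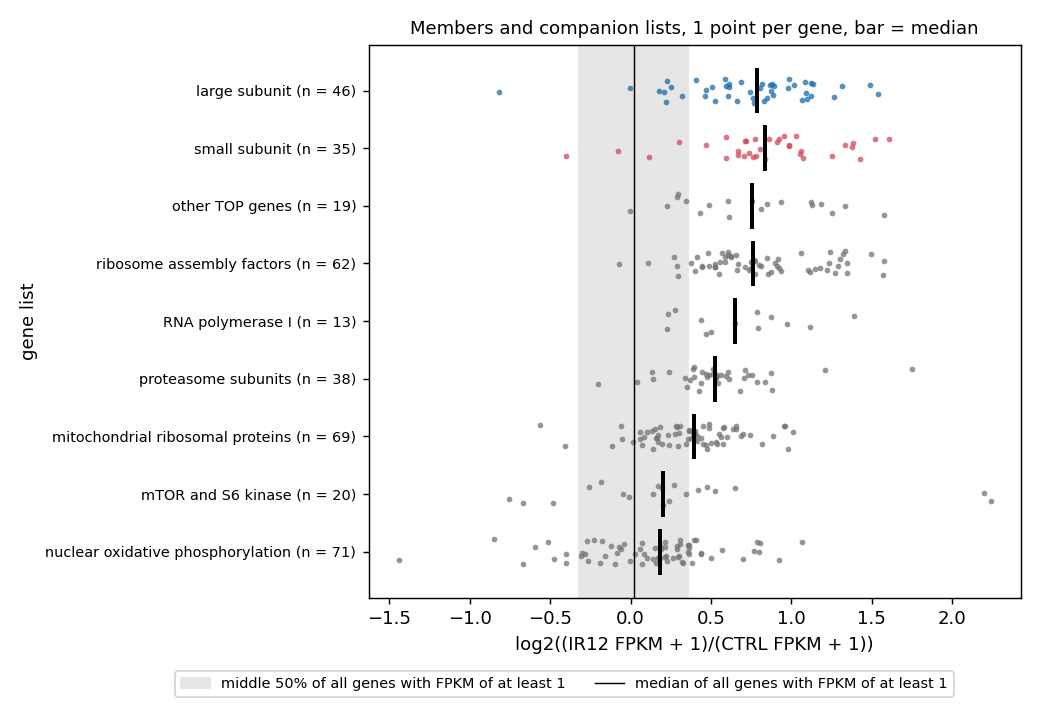
Log2 ratio of IR12 to CTRL (FPKM + 1) for members by subunit and for 7 companion lists, with 1 point per gene that passed the minimum of 1 FPKM and a bar at each median. The grey band holds the middle 50% of all 13599 genes and the thin line their median of 0.02, and the medians run from 0.84 (small subunit) to 0.18 (oxidative phosphorylation).

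Markers of the tissue and of other cells were read beside these values. In a bulk sample fewer cells of a type and less RNA per cell cannot be told apart. The rod markers showed retina in both libraries. Gnat1, the rod transducin, was at 4027 FPKM in CTRL and 4237 in IR12, Sag at 2482 and 4703, Rcvrn at 1558 and 825, Pde6b at 891 and 718, Cnga1 at 675 and 677, Pde6a at 595 and 754, Nrl at 54.1 and 39.4 and Nr2e3 at 27.3 and 23.5. The median log2 ratio of the rod list was 0.00, beside 0.81 for the members, and on the scale of equal sums 0.65 beside 1.43.

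Leukocyte markers were higher in 9 of 10 (51.8% of all genes were), with a summed FPKM of 21.8 in CTRL and 138 in IR12. Lyz2, the most abundant, was at 9.73 and 76.9, S100a9 at 0.199 and 23.0, Itgam at 0.693 and 5.71, Ptprc, the pan-leukocyte CD45, at 0.408 and 2.98, Cd14 at 0.130 and 2.85 and Cd68 at 0.437 and 1.65. S100a8 was listed at 0 and 12.8. Of the leukocyte genes named so far, all but Lyz2 passed the minimum of 1 FPKM in IR12 alone. The markers of resident microglia differed by less than 1.5-fold after 1 FPKM was added, which makes differences of genes at low levels smaller, with Aif1 at 5.42 and 7.36, Csf1r at 3.61 and 3.71 and Cx3cr1 at 1.16 and 0.676. All these genes stayed below most members in FPKM, and their part in the members' ratios was not tested.

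Lens markers were lower in 9 of 9 (48.2% of all genes were), with a sum of 3387 in CTRL and 402 in IR12. Cryba1 was the most abundant, at 1614 and 196 FPKM, Cryaa was at 1118 and 124, Crybb2 at 418 and 47.0, Crygs at 194 and 28.3, Mip at 16.1 and 1.67, Lim2 at 10.7 and 1.52, Bfsp2 at 7.42 and 0.931, Bfsp1 at 6.29 and 1.497 and Cryga at 1.73 and 0.827. Müller glia markers were lower in 5 of 7 (48.2% of all genes were), with a sum of 1167 and 444. Glul, the most abundant, was at 754 and 126, Rlbp1 at 126 and 26.8, Slc1a3 at 108 and 44.3, Aqp4 at 48.0 and 4.16 and Kcnj10 at 7.07 and 0.467, while Vim was at 121 and 221 and Gfap, a marker of reactive glia, at 2.95 and 21.9. None of the lens and Müller glia genes was at 0 in either library, and their part in the members' ratios was not tested.

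The other lists differed less. Of the retinal ganglion cell markers that passed the minimum 4 of 6 were lower as deposited and 1 of 6 on the scale of equal sums. Of all genes 48.2% and 15.7% were lower on these scales. Nefl was at 132 and 88.8 FPKM, Sncg at 79.7 and 80.7, Thy1 at 51.3 and 45.7 and Nefm at 19.5 and 17.5. Rbpms was at 5.69 and 7.46, Pou4f2 at 3.41 and 1.06 and Pou4f1 at 0.245 and 0.0359. In the pigment epithelium list Ttr was at 61.8 and 87.4, Rgr at 13.7 and 21.6, Rpe65 at 11.1 and 4.88, Pmel at 3.74 and 4.01, Lrat at 2.01 and 1.77, Tyr at 0.392 and 0.162 and Best1 at 0.242 and 0.124. For blood, Hbb was at 20.4 and 35.1 and Alas2 at 0.334 and 0.196.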

How the data were processed

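Total RNA of 1 CTRL and 1 IR12 rat retina was sequenced. The submitters' processing notes name STAR 2.5.2b, Cuffdiff 2.2.0 and build rn6, and the authors deposited 1 FPKM value per gene and library. How reads that match several places were counted is not given in the sources used here. Single-read steps at shared locus lengths were 1.71 times larger in CTRL than in IR12 (17 of 24 lengths), so a single read was worth more FPKM there.

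Members were matched by symbol with pandas 2.3.3 in Python 3.11.15, and log2 ratios were computed with numpy 2.4.6 after adding 1 FPKM, for genes with at least 1 FPKM in at least 1 library. Figures were drawn with matplotlib 3.10.9. The calls at 1.5-fold and 2-fold are descriptive, and the procedure was tested on simulated data. Start positions in the table are 0-based, and 1 was added to each. Small RNAs were recognised by symbol.

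Named genes were canonical members listed at 0, the 8 largest and 8 smallest ratios among members with at least 5 FPKM in either library and the 3 of each per subunit, the 5 highest and 5 lowest mean FPKM above 0, paralogues, P stalk and 5S particle members with their parents, members next to the 2-fold line, the 3 largest and 3 smallest ratios per companion list among genes with at least 5 FPKM in either library, all cell type markers, Gapdh and Actb. The members and lists were chosen with earlier results of these data known. Alternatives were the pseudocount, the minimum FPKM, the scale, and the choice of members. A few genes, and a list built on 1 of them, are not reported here or drawn in the plots by gene.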

Additional observations from a re-analysis of the deposited data

How the results depend on the processing

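The median log2 ratio of the members stayed above that of all genes in every setting tried. It was between 0.71 and 0.86 with a pseudocount of 0.1, a minimum FPKM of 5, no minimum, equal sums without small RNAs, centring on the median gene, canonical symbols alone, or no members with a shared locus, and 1.43 on the scale of equal sums (TPM scale), where all genes moved too. On the TPM scale 69 members were at least 2-fold higher, 1 was lower and 0 were at least 1.5-fold lower (22.4%, 15.7% and 5.64% of all genes), while with equal sums over genes that are not small RNAs 14 were at least 2-fold higher (5.79% of all genes). The count of lower members was 2 with a minimum FPKM of 5, 8 with no minimum and 0 on canonical symbols alone, where 0 were at least 1.5-fold lower and 12 entries were at 0 in both libraries. Without members that share a listed locus, 50 passed, of which 48 were higher, 2 lower, 38 at least 1.5-fold higher and 13 at least 2-fold higher. Fewer entries by construction account for these lower counts. Without members spanning under 1000 bp, a setting chosen after seeing the data, 0 were at least 1.5-fold lower and the median was 0.82. Large minus small subunit medians moved by less than 0.1. The ratio of the summed FPKM, 1.69 as deposited, was 1.72 without Rps29 and, in settings added after seeing the data, 1.58 with equal sums without small RNAs and 2.65 on the TPM scale. Of 83 named members and companion genes, 16 were lower as deposited, and 12 of these were higher on the TPM scale, where the median of all genes rose as well. Ndufc1, at 0.0400 there, was the 1 of the 12 that was at least 1.5-fold lower as deposited. With equal sums without small RNAs 2 of 67 higher named genes turned lower (Psmb1 and Ccng1). With 1 library per condition and no read counts, the precision of each ratio is unknown.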

Other observations

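Other genes of translation were grouped by symbol after the data were seen, and their medians lay between those of the members and of all genes. Of the initiation factors and their regulators (symbols starting with Eif), 52 passed the minimum, with a median log2 ratio of 0.58. As deposited, 47 were higher in IR12 and 24 at least 1.5-fold higher (51.8% and 14.8% of all genes). On the scale of equal sums 51 and 48 were (84.3% and 52.2% of all genes), with a median of 1.21. With equal sums over genes that are not small RNAs 45 and 21 were (44.6% and 12.3% of all genes). Eif4a1, a helicase that unwinds message starts, was at 195 FPKM in CTRL and 430 in IR12, and Eif3k at 31.3 and 83.7, while Eif1, which guards the choice of start codon, was at 198 and 141 and Eif4e3 at 8.82 and 5.45. The lower genes depend on the scale, since on the scale of equal sums Eif4e3 alone was lower (-0.04) and Eif1 was higher (0.16).

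Of the aminoacyl-tRNA synthetases 33 of 35 were higher as deposited and 18 at least 1.5-fold higher (51.8% and 14.8% of all genes). Their median was 0.67. On the scale of equal sums 35 and 33 were (84.3% and 52.2% of all genes), with a median of 1.30. With equal sums over genes that are not small RNAs 30 and 17 were (44.6% and 12.3% of all genes). Tars was at 22.9 and 83.6 FPKM, Yars at 25.7 and 68.4 and Aars at 86.9 and 198. The smallest ratios were those of the mitochondrial Vars2 at 8.38 and 7.29, the cytosolic Dars at 56.2 and 55.4 and the mitochondrial Wars2 at 3.91 and 3.94. Cars2, also mitochondrial, was at 5.39 and 11.2, a log2 ratio of 0.93.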
